A study of Homo sapiens with 2 samples.

Results

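Interferon-stimulated genes are the genes that cells switch on when a virus or another source of foreign nucleic acid is sensed. A set of 39 of them was taken by symbol from a gene table of 24991 single-gene symbols, and all 39 had a row. The table came from RNA sequencing of PLC/PRF/5, an established human hepatocellular carcinoma line known to carry integrated hepatitis B virus DNA, in a study of carnosine, cell pH and escape of tumour cells from the immune system. One library came from cells with an empty vector (EV) and the other from cells that overexpressed NFX1, a zinc-finger transcription factor (NFX1_OE). Both cultures were grown in DMEM with fetal bovine serum and kept under hypoxia, so hypoxia is shared by both groups, and no normoxic sample was analysed here. For the oxygen level, the time under hypoxia and the promoter that drove NFX1, the labels give nothing.

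Each group had 1 library. No difference below has a replicate check, none has a p-value of its own, and every comparison is between these 2 libraries. Levels are in FPKM, fragments per kilobase of transcript scaled for the size of the library. Of a pair of levels the first is from the vector library and the second from the NFX1 library. NFX1 itself had 4.21 and 56.0 FPKM. In bulk RNA, fewer cells that make a transcript and less transcript per cell cannot be told apart. The steps between the lowest values of the table gave a scaling to about 36200000 fragments for the vector library and 41850000 for the NFX1 library. This is used as the depth below. How the libraries were scaled is not given, so it need not be the number of mapped fragments. Of 7 hepatocyte and hepatoma markers, all had at least 1 FPKM in a library, led by SERPINA1 (alpha-1-antitrypsin) at 5935 and 6807 FPKM, while albumin (ALB) had only 0.776 and 1.06 FPKM. Of 7 leukocyte markers, PTPRC (CD45), CD3E and CLEC4C were listed at 0 in both libraries, and LYZ and CD68 lay near 50 FPKM, between 47.9 and 52.6. All 6 endothelial and fibroblast markers stayed under 1 FPKM.

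As background, double-stranded RNA in the cytoplasm is sensed by RIG-I (gene DDX58) and MDA5 (IFIH1), which signal through MAVS and the kinase TBK1 to the transcription factor IRF3 and to the production of type I and type III interferons. Secreted interferon binds its receptor, the kinases JAK1 and TYK2 phosphorylate STAT proteins, STAT2 among them, and these join IRF9 to bind the interferon-stimulated response element in the promoters of many genes. Hepatocytes are the main host cells of hepatitis viruses, and the basal level of these genes can be a part of how ready a cell is before any interferon arrives. That readiness was not measured here.

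Levels of the 39 members ran from 0 to 662 FPKM in the vector library and from 0 to 848 FPKM in the NFX1 library. A level of 1 FPKM or more in either library, called measured below, was reached by 18 of the 39 members (46.2%), against 44.7% of all symbols in the table. Of the other 21 members, 11 reached 0.2 FPKM in at least 1 library, the highest at 0.974 FPKM, and 10 were under 0.2 FPKM in both. The summed FPKM of the set was 1536 in the vector library and 1835 in the NFX1 library. IFITM3 and ISG15 alone made up 77.9% of that sum in the vector library and 80.1% in the NFX1 library.

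**Figure D1:**
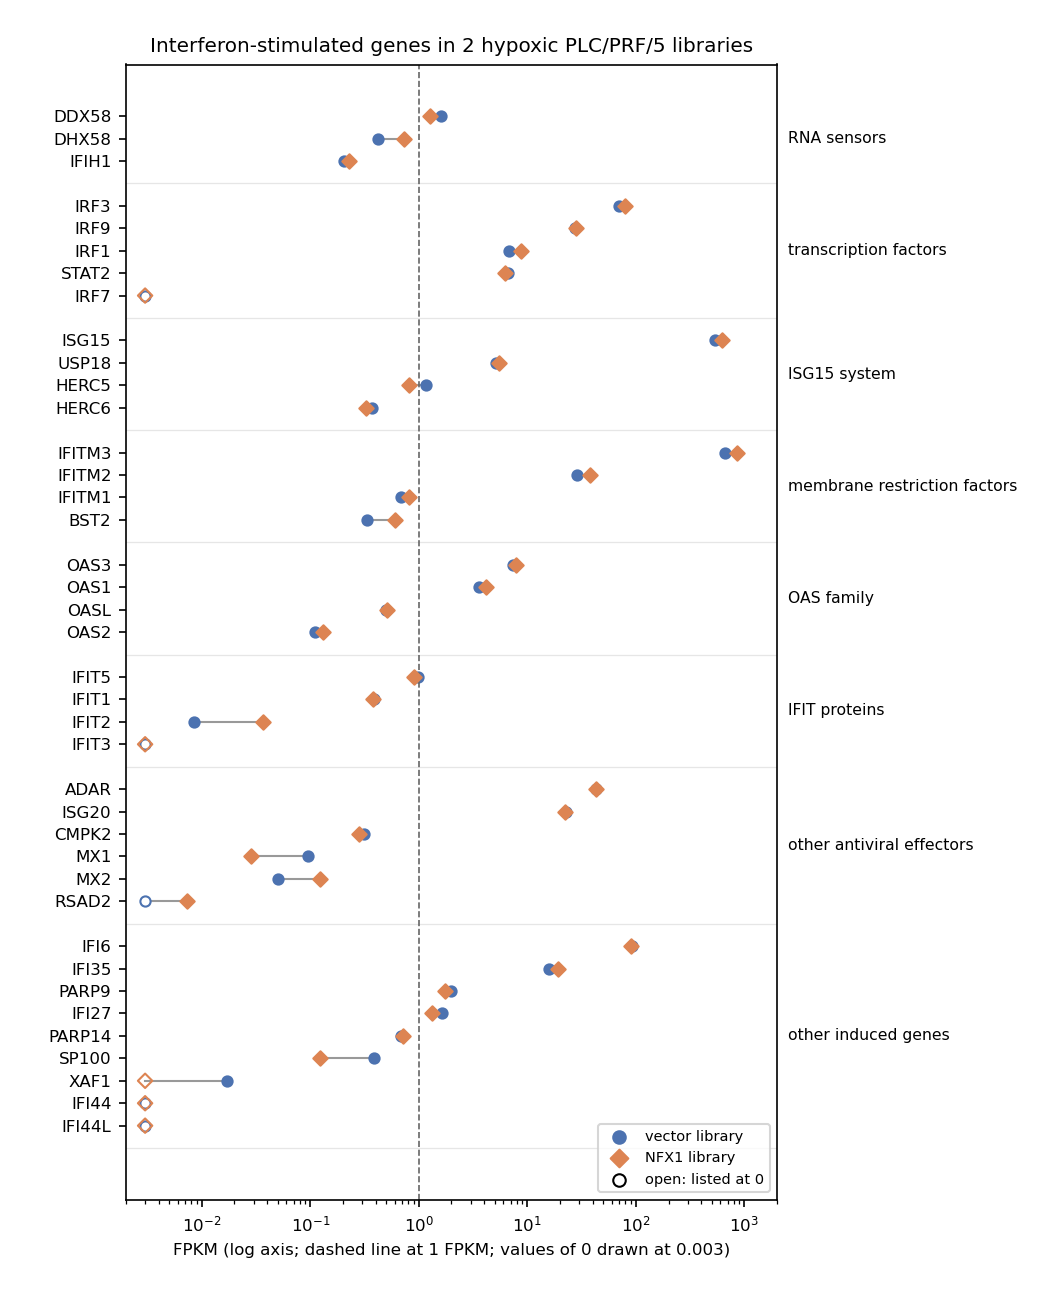
FPKM of each of the 39 interferon-stimulated genes in the vector library (circles) and the NFX1 library (diamonds) on a log axis, grouped by role; open symbols are values listed at 0, drawn at 0.003. The symbols of a gene lie close together for the members above 1 FPKM and farther apart for several with few fragments, such as IFIT2 and SP100. IFITM3 and ISG15 lie farthest to the right, with 662 and 534 FPKM in the vector library, while IFIT3, IRF7, IFI44 and IFI44L are at 0.

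The RNA sensors were low. DDX58 (RIG-I) had 1.60 and 1.27 FPKM. IFIH1 (MDA5) had 0.205 and 0.229 FPKM. DHX58 (LGP2), the sensor without a signalling domain of its own, had 0.423 and 0.727 FPKM. DDX58 was thus the only measured sensor of the 3. It was lower in the NFX1 library, and DHX58 was higher there. The ratio of the NFX1 to the vector library was 0.797 for DDX58, with a 95% counting interval of 0.661 to 0.970, from an estimated 228 and 211 fragments. For DHX58 the ratio was 1.72 with an interval of 1.13 to 2.62, from 36 and 71 fragments, and for IFIH1 it was 1.11 with an interval of 0.634 to 2.03, from 23 and 30 fragments. These intervals are exact (Clopper-Pearson) and cover counting error only, not the spread between cultures.

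Of the transcription factors, 4 of 5 were measured. IRF3, which RNA sensors activate and which is made in most cells without interferon, had 69.3 and 79.9 FPKM. IRF9, the DNA-binding partner of STAT2, had 27.4 and 28.3 FPKM. STAT2 had 6.68 and 6.26 FPKM, and IRF1, a factor induced above all by interferon gamma, had 6.72 and 8.65 FPKM. IRF7, the factor that amplifies the interferon response, was listed at 0 in both libraries, where 3 fragments would have given 0.0491 and 0.0425 FPKM. The row of IRF3 shares its locus with BCL2L12 (38.4 and 45.5 FPKM). Whether the counting used strand is not stated, so reads of these neighbours cannot be told apart.

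ISG15, a ubiquitin-like modifier, stood far above the rest of its system. It had 534 and 622 FPKM. USP18, which removes ISG15 from proteins and restrains the type I interferon receptor, had 5.18 and 5.48 FPKM. HERC5, the ligase that attaches ISG15 in human cells, had 1.15 and 0.814 FPKM, and its relative HERC6 had 0.371 and 0.326 FPKM. HERC5 counted as measured through the vector library alone. UBA7, the activating enzyme that ISG15 conjugation starts from, is not in the set of 39 and was looked up after the other values were seen: it had 0.0180 and 0.0313 FPKM. UBE2L6, the conjugating enzyme of the same pathway, had 8.77 and 7.17 FPKM. In both libraries the modifier was therefore abundant beside low levels of its activating enzyme and ligase.

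Membrane restriction factors held the most abundant transcript. IFITM3, which blocks virus entry at endosomes, had 662 and 848 FPKM. IFITM2 had 28.6 and 37.5 FPKM, and IFITM1, which acts at the cell surface, had 0.678 and 0.805 FPKM. All 3 were higher in the NFX1 library, but the interval of IFITM1 included 1 (0.558 to 2.53). IFITM2 and IFITM3 stayed higher under each of the 10 other settings. The 3 genes are close copies of each other and how their shared reads were divided is not known. A separate row with the symbol IFITM2, on chromosome 11 from 309548 to 311165 (hg19), had 1.28 and 1.5 FPKM and was not used. BST2 (tetherin), which holds budding virus at the cell surface, had 0.330 and 0.606 FPKM. These were 9 and 19 estimated fragments, with an interval of 0.787 to 4.58 for the ratio.

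The OAS genes encode enzymes that make oligoadenylate messengers when they bind double-stranded RNA. OAS3 had 7.40 and 7.82 FPKM, and OAS1 had 3.56 and 4.18 FPKM. OAS2, in the same cluster on chromosome 12 (113344739 to 113449528, hg19), had only 0.111 and 0.130 FPKM, and OASL 0.503 and 0.509 FPKM.

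The 4 IFIT genes, whose proteins bind foreign RNA ends, lie side by side on chromosome 10 (91061706 to 91180759, hg19) and none was measured. IFIT5 came closest, at 0.974 and 0.898 FPKM, then IFIT1 at 0.389 and 0.377 FPKM. IFIT2 had 0.00848 and 0.0369 FPKM, an estimated 1 and 5 fragments, and IFIT3 was listed at 0 in both libraries. Neighbours within this cluster thus ran from 132 and 141 estimated fragments for IFIT5 to none for IFIT3. With 1 and 5 fragments the interval for the ratio of IFIT2 ran from 0.484 to 205.

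Among the other antiviral effectors, ADAR, which edits adenosine to inosine in double-stranded RNA and keeps self RNA from being sensed, had 42.6 and 43.4 FPKM. ISG20, an exonuclease, had 22.9 and 22.2 FPKM. MX1 and MX2, dynamin-like GTPases that trap viral particles, had 0.0961 and 0.0281 FPKM and 0.0508 and 0.124 FPKM. These were an estimated 9 and 3 fragments for MX1 and 5 and 14 fragments for MX2, and both intervals included 1. RSAD2 (viperin) was listed at 0 with the vector and had an estimated 1 fragment (0.00735 FPKM) with NFX1. Its neighbour CMPK2, a mitochondrial nucleotide kinase, had 0.309 and 0.281 FPKM.

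The remaining members also ran from high levels to 0. IFI6, a mitochondrial protein that counters apoptosis, had 91.8 and 90.3 FPKM. IFI35 had 15.8 and 19.3 FPKM, IFI27 had 1.63 and 1.33 FPKM, and PARP9 had 1.97 and 1.73 FPKM. The row of PARP9 shares its locus with DTX3L, its partner in a ubiquitin ligase complex, at 1.84 and 1.82 FPKM. PARP14, next to PARP9, had 0.679 and 0.714 FPKM. SP100, a component of PML nuclear bodies, had 0.389 and 0.124 FPKM. These were an estimated 25 and 9 fragments, with a ratio of 0.318 and an interval of 0.128 to 0.690. XAF1 had 0.0170 FPKM, 1 estimated fragment, in the vector library and 0 in the NFX1 library. The neighbours IFI44 and IFI44L on chromosome 1 were listed at 0 in both libraries, where 3 fragments would have given between 0.0128 and 0.0585 FPKM.

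The order of the 39 levels was nearly the same in both libraries, with a Spearman correlation of 0.989 across the 39 genes, which share the 2 libraries and are not replicates. The 8 highest members were IFITM3, ISG15, IFI6, IRF3, ADAR, IFITM2, IRF9 and ISG20, in that order in both. Of these, IRF9 and IFITM2 were neighbours with nearly the same level in the vector library.

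To show what the abundant and the low members share in sequence, RefSeq promoters (GRCh38.p14) were searched on both strands for a motif. A promoter ran from 250 bases before to 50 after a transcript start. The motif was GAAA, any 2 bases and GAAA again, the core of the interferon-stimulated response element. The promoter table held 30 of the 39 members, with 43 promoters, and 19 of the 30 had the motif in at least 1 promoter (63.3%), against 4.38% of all 27305 genes in the table. By promoter, it was found in 53.5% of the members' promoters and in 3.57% of all 35116. Of the 19 members with the motif 8 were measured, and of the 11 without it 7 were. The other 9 members had no promoter there and are left out of these comparisons. They were IRF3, IFITM2, USP18, DHX58, OASL, OAS2, MX2, IFIT2 and IRF7, with levels given above. The median level of the 19 was 0.679 and 0.805 FPKM, and that of the 11 was 3.56 and 4.18 FPKM. Of all genes in both the gene table and the promoter table, 8444 were measured and 7073 were not. Neither these counts nor the levels of all genes were split by motif, so the 2 groups of members have no baseline here. Whether the motif goes with level was not tested. The 11 without the motif were ADAR, IRF9, IFI35, OAS1, STAT2, IRF1, DDX58, HERC6, XAF1, SP100 and CMPK2. Abundant ones are among them, with 42.6 FPKM for ADAR, 27.4 for IRF9 and 15.8 for IFI35 in the vector library. The following stretches, each 5′ to 3′ on the gene's own strand, are shown because some abundant and some low members carry the same motif. Capitals mark every whole copy of the motif, or of its reverse complement (TTTC, any 2 bases, TTTC), in the stretch. The first 3 are from abundant members, ISG15 (chr1:1013370-1013419, plus strand), IFITM3 (chr11:320866-320915, minus strand) and ISG20 (chr15:88638927-88638976, plus strand). The other 5 are from members under 1 FPKM, BST2 (chr19:17405725-17405774, minus strand), IFIT1 (chr10:89392500-89392549, plus strand), IFIT3 (chr10:89327855-89327904, plus strand), IFI44L (chr1:78620355-78620404, plus strand) and RSAD2 (chr2:6877612-6877661, plus strand).
ISG15: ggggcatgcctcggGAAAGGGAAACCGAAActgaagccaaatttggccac
IFITM3: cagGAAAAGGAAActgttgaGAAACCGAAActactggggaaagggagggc
ISG20: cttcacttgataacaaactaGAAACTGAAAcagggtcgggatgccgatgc
BST2: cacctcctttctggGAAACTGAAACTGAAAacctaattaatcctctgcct
IFIT1: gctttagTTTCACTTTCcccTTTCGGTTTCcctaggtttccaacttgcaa
IFIT3: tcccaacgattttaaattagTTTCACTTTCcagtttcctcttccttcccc
IFI44L: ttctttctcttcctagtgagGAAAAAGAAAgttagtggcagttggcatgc
RSAD2: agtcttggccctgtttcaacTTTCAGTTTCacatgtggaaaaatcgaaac

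In ISG15 and in BST2, a pair of overlapping copies run in the same direction, at 534 FPKM and 0.330 FPKM in the vector library. IFIT1 has 2 copies in the other orientation and had 0.389 FPKM. At least 2 copies in 1 promoter were found in 15 of the members' 43 promoters and in 0.259% of all promoters. A second motif, TTC, any 3 bases and GAA, which reads the same on both strands and is the core of the gamma-activated site, was found in 9 of the 30 members (30%), IRF1 and IRF9 among them, against 9.38% of all genes. A match is a description of these letters, and neither occupancy nor chromatin was measured.

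The measured members differed little between the libraries. The change of a gene is given as log2((NFX1 FPKM + 1)/(vector FPKM + 1)), which understates changes of low genes. The median change of the 18 measured members was 0.06, from -0.25 for HERC5 to 0.38 for IFITM2, beside 0.01 over all 11182 measured genes. Of the 18, 11 were higher and 7 lower in the NFX1 library, and of all measured genes 52.0% were higher. None of the 18 differed by 2-fold, a limit that 0.143% of all measured genes passed (0.107% higher and 0.0358% lower). At the lower limit of 1.2-fold, which 16.5% of all measured genes passed, 4 members did (22.2%). All 4 were higher, against 11.5% of all genes higher and 4.95% lower. With the libraries set to equal FPKM sums or to equal upper quartiles the split was 2 higher (IFITM2 and IFITM3) and 1 lower (HERC5). With a pseudocount of 0.1 it was 4 higher and 3 lower, with DDX58, HERC5 and IFI27 as the lower ones.

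These 4 were IFITM2, IFITM3, IRF1 and IFI35, with changes of 0.38, 0.36, 0.32 and 0.27. Their ratios of NFX1 to vector FPKM were 1.31 for IFITM2 (interval 1.15 to 1.5), 1.28 for IFITM3 (1.25 to 1.31), 1.29 for IRF1 (1.14 to 1.46) and 1.22 for IFI35 (1.10 to 1.37). ISG15 had a ratio of 1.16 (1.13 to 1.2) and IRF3 of 1.15 (1.10 to 1.21). At the other end HERC5 had a ratio of 0.705 (0.528 to 0.943), next to DDX58 at 0.797. Counting intervals lay above 1 for 6 and below 1 for 2 of the 18 members, 44.4% in all. Over all measured genes with a transcript length, intervals excluded 1 for 55.2%, with 32.4% above and 22.8% below.

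**Figure D2:**
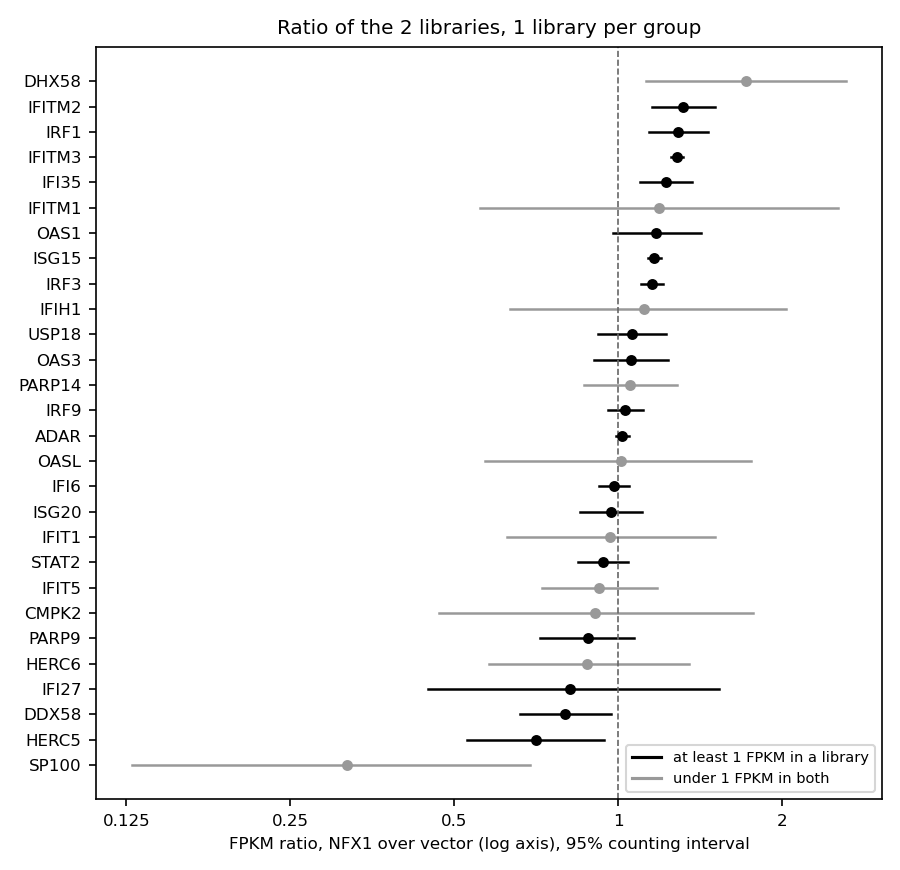
Ratio of NFX1 to vector FPKM (log axis) with its 95% counting interval for 28 members, black for the 18 with at least 1 FPKM in a library and grey for those under 1 FPKM with at least 30 estimated fragments in all. Of the black points, IFITM2, IRF1, IFITM3, IFI35, ISG15 and IRF3 lie above 1 with their whole interval, and DDX58 and HERC5 below it.

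The direction of change went with the base composition of the transcripts over the table as a whole, and among the members only in part. Over all genes with a GENCODE transcript, those at or above the median GC content of 50.3% had a median change of 0.15 and 80.3% of genes higher in the NFX1 library, and the others had -0.09 and 23.8%. Of the 18 members, 14 lay at or above that median, with a median of 0.13 and 10 higher. STAT2, ISG20, IFI6 and IFI27 were the 4 lower ones among these 14, so most of the 7 lower members were not of low GC content. The 4 members under the GC median, DDX58, HERC5, PARP9 and ADAR, had a median change of -0.16. Of these ADAR alone was higher, at 0.02, which turned to -0.05 with equal FPKM sums or upper quartiles. GC content of the measured members ran from 40.2% for DDX58 to 64.2% for ISG15. What part of each difference goes with base composition was not tested.

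When the trend on GC content, transcript length and level was subtracted, the median of the 18 members was -0.02, with 8 higher and 10 lower, beside 0.00 over all genes. The changes of ISG15 and IRF3 turned from 0.22 and 0.20 to -0.08 and -0.02, and those of OAS3 and IRF9 also turned to lower. IRF1 kept 0.24 and IFITM2 0.21, while IFITM3 was left with 0.08 and IFI35 with 0.10. OAS1, with a transcript GC content of 50.5%, had 0.18 as deposited and 0.19 afterwards. DDX58 went from -0.19 to -0.06 and HERC5 from -0.25 to -0.12. IFI27, from an estimated 24 and 23 fragments, was then the only member past 1.2-fold, at -0.29, a limit that 6.49% of all genes passed (3.05% higher and 3.44% lower), so the 4 higher and 0 lower members of the deposited values became 0 higher and 1 lower.

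**Figure D3:**
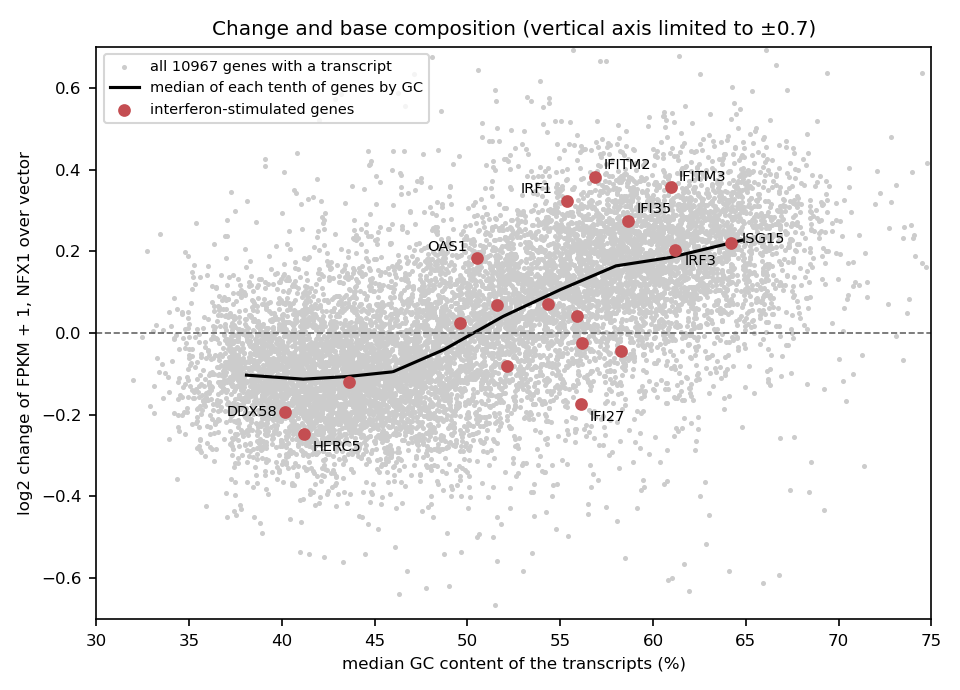
Log2 change of FPKM + 1 against the median GC content of a gene's transcripts for all 10967 genes with a transcript (grey), the median of 10 equal groups of genes by GC content (line) and the 18 measured interferon-stimulated genes (red). ISG15 and IRF3 lie close to the line, IFITM2, IRF1 and OAS1 above it, and IFI27 below it.

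In the authors' deposited table, 28 of the 39 members had been tested and none was marked significant, beside 0.12% of all tested rows. Of the 28, 1 had an unadjusted p under 0.05 in the authors' deposited table, beside 1.45% of all tested rows. This was SP100, with a log2 fold change of -1.65, a p of 0.0326 and a q of 0.999 by the authors' deposited table, which compares 1 library with 1 library.

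Genes upstream and downstream of the set were described from lists of the pathway. For comparison with the splits below, 52.0% of all measured genes were higher in the NFX1 library, and 51.0% with the trend removed. Past 1.2-fold, 11.5% of all measured genes were higher and 4.95% lower. With the trend removed these shares were 3.05% and 3.44%. Interferon ligands were not detected at this depth: all 21 type I, II and III interferon genes in the table were listed at 0 in both libraries. For IFNB1, 3 fragments would have given 0.141 and 0.122 FPKM, and over the 21 genes that limit ran from 0.0431 to 0.195 FPKM. Transcripts of 15 common reference genes were all above 0, the lowest at 11.3 FPKM. At levels so far above those limits, they cannot show whether a rare interferon transcript would have been seen.

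Receptors and their kinases were present. Of 8 listed genes with a row of their own, 7 were measured, with 2 higher and 5 lower in the NFX1 library and a median change of -0.18. With the trend removed 1 was higher and 6 were lower, with a median of -0.14. JAK1, the kinase shared by all interferon receptors, had 47.9 and 38.3 FPKM. Its change was -0.32, and -0.23 with the trend removed. IFNGR2 had 65.5 and 60.1 FPKM, IFNGR1 21.3 and 18.4 FPKM (a change of -0.20, and -0.27 with equal FPKM sums or upper quartiles), and TYK2, in the other direction, 14.4 and 17.1 FPKM. IFNAR2 shared a row with IL10RB, at 68.8 and 63.7 FPKM. Past 1.2-fold on the deposited values lay JAK1 alone, beside 4.95% of all measured genes lower by that much. With the trend removed JAK1 too was inside that limit.

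Of 14 sensing adaptors and kinases, 9 were measured, 5 higher and 4 lower, with a median of 0.02. This split turned with the trend removed, to 3 higher and 6 lower and a median of -0.05. MAVS, the adaptor of RIG-I and MDA5, had 22.5 and 22.8 FPKM, and TRIM25, a ubiquitin ligase of the RIG-I pathway, had 23.6 and 25.2 FPKM. TBK1 had 6.36 and 4.94 FPKM and RNF135 (Riplet), which ubiquitinates RIG-I, 1.90 and 1.24 FPKM. Both were lower by more than 1.2-fold, with changes of -0.31 and -0.37, beside 4.95% of all measured genes. With the trend removed TBK1 had -0.20, inside that limit, and RNF135 -0.44, past it, beside 3.44% of all genes. TRAF3 had 15.6 and 13.3 FPKM, a change of -0.21 that passed the limit with equal FPKM sums or upper quartiles (-0.28 in both). IKBKE had 4.37 and 5.31 FPKM, a change of 0.23 that passed it with a pseudocount of 0.1 (0.27). The DNA-sensing arm, looked up after the values were seen, was nearly absent: MB21D1 (cGAS) had 0.0179 and 0 FPKM and TMEM173 (STING) 0.0990 and 0.0369 FPKM. TLR3, the endosomal sensor of double-stranded RNA, had 0.0395 and 0.00860 FPKM. The RNA arm thus had its adaptor MAVS well above all 3 of its sensors, the highest of which was DDX58.

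Of 7 listed genes of nucleic acid clearance, 6 were measured, 4 higher and 2 lower, with a median of 0.15 that was 0.03 with the trend removed. RNASEH2A, the catalytic subunit of RNase H2, had 81.2 and 107 FPKM. It was the only one past 1.2-fold, beside 11.5% of all measured genes higher by that much. Its change was 0.40, and 0.35 with the trend removed, where 3.05% of all genes were past 1.2-fold higher. RNASEH2C had 48.5 and 56.6 FPKM, DNASE2 92.7 and 102 FPKM, SKIV2L 15.2 and 17.2 FPKM, and SAMHD1, which degrades deoxynucleotides, 3.98 and 3.51 FPKM. With the trend removed, the change of RNASEH2C went from 0.22 to 0.02, that of SKIV2L from 0.17 to 0.05 and that of DNASE2 from 0.14 to -0.01.

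Of 9 feedback and conjugation genes, 8 were measured, 4 higher and 4 lower, with a median of -0.0013 and none past 1.2-fold on the deposited values. Among them the phosphatase genes PTPN1, PTPN2 and PTPN6 had 38.0 and 36.1, 7.71 and 9.23, and 18.5 and 20.8 FPKM. UBE2E2 had 23.4 and 23.8 FPKM and SOCS3, an inhibitor of JAK kinases, 5.25 and 5.65 FPKM. Under other settings 2 of the 8 passed 1.2-fold. UBE2L6, given above beside ISG15, had a change of -0.26, which was -0.38 with the trend removed, -0.32 with equal FPKM sums or upper quartiles and -0.29 with a pseudocount of 0.1. PTPN2 had 0.23, which was 0.32 with the trend removed.

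Of 33 further induced genes, 14 were measured, 4 higher and 10 lower, with a median of -0.11. With the trend removed 6 were higher and 8 lower, with a median of -0.03. IFI30, a lysosomal thiol reductase, had 108 and 135 FPKM. TDRD7 had 4.01 and 2.75 FPKM, SP110 2.96 and 2.27 FPKM, and IRF2 2.38 and 1.81 FPKM. These 3 were past 1.2-fold lower and IFI30 past it higher, beside 4.95% and 11.5% of all genes. With the trend removed TDRD7 alone of the 4 was still past it, at -0.30, while SP110 had -0.21, IRF2 -0.17 and IFI30 0.11. IFI30 was also inside the limit with equal FPKM sums or upper quartiles, at 0.24. TRIM5, a restriction factor of retroviruses, had 8.98 and 8.12 FPKM. CXCL10 was listed at 0 in both libraries, and CXCL11 at 0 and 0.0179 FPKM.

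**Figure D4:**
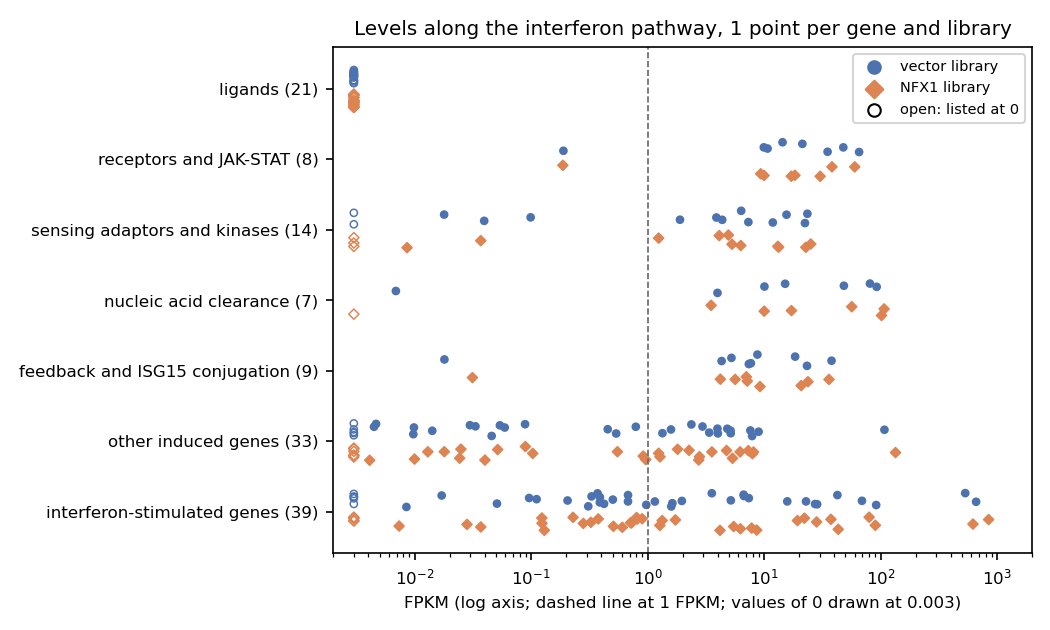
FPKM of every gene of the 6 pathway lists and of the 39 interferon-stimulated genes in the vector library (circles) and the NFX1 library (diamonds), on a log axis with values of 0 drawn as open symbols at 0.003. All 21 interferon ligands are at 0, and 7 of the 8 receptor and JAK-STAT genes lie above 5 FPKM in both libraries.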

How the data were processed

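RNA from 1 vector and 1 NFX1 culture was sequenced. Groups were taken from the genotype labels. The submitters' processing notes list hg19, Cufflinks 2.2.1 and TopHat2 2.1.0; the settings, annotation, strand use and scaling are not given in the sources used here. As deposited, each row holds an FPKM per library and, per the file headers, p-values, q-values, a score (the test statistic) and a log2 fold change per row. FPKM is unreliable for transcripts about as short as a fragment.

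The table has 28658 rows, of which 1651 had no symbol and 492 had several; these were left out, and of repeated symbols the row with the highest mean was kept. Changes used a pseudocount of 1 and genes with at least 1 FPKM in a library. Because the table gives no counts, fragments were estimated. Among 520 single-transcript genes listed at 0 in the other library, 30.8% lay within 0.03 (log2) of 1 fragment when 270 bases were taken off each length, against a median of 0.769% for steps placed between 1 and 2 fragments. Lengths and GC content were medians over a gene's GENCODE v29 basic coding transcripts, matched by symbol for 98.1% of measured genes. The coordinates of GENCODE v29, which are on a different build, were not used. Too short a length makes an interval too wide, and too long a length makes it too narrow. The trend, from cubic splines fitted to genes that differed by under 2-fold, took 41.9% of the variance. Promoters were matched by RefSeq symbol or synonym.

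Members, lists, limits and alternatives were chosen with earlier results of these data known. Named were all measured members and, among the low ones, the sensors, transcription factors and defining induced genes, plus, per pathway list, up to 4 genes with the greatest change and the 2 highest. Other low members and pathway genes under 1 FPKM were named after their values were seen, as were the second motif, the reference genes and the grouping by role. Some genes of the pathway lists enter the counts and are not reported here by name. Alternatives were other pseudocounts, filters, scalings, row choices and removal of the trend. Steps were tested on simulated libraries. Scripts ran under matplotlib 3.10.9, scipy 1.17.1, pandas 2.3.3, numpy 2.4.6 and Python 3.11.15.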

Additional observations from a re-analysis of the deposited data

How the results depend on the processing

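With 1 library per group nothing here measures the spread between cultures, and no library could be left out. No paired analysis was possible because each group had 1 library. None of the 18 measured members passed 2-fold under any of the 10 alternatives run. With no filter the pseudocount was still 1, so 2 values under 1 FPKM could not reach 2-fold. By the FPKM ratio itself, low members such as SP100 (0.318), MX1 (0.293), MX2 (2.44) and IFIT2 (4.35) passed it, all from few fragments. The count of members past 1.2-fold, 4 as reported, was 7 with a pseudocount of 0.1 (4 higher and 3 lower), 2 with a pseudocount of 5, 7 with no filter on low values and 1 with the trend removed; with equal FPKM sums or upper quartile scaling it was 3 (2 higher and 1 lower). The median change of the members, 0.06 as reported, was -0.01 with equal FPKM sums and with upper quartile scaling, and -0.02 with the trend removed. Those 2 scalings also turned IRF9, ADAR, MAVS and UBE2E2 to lower, and removal of the trend turned PARP9 to higher and DNASE2 and SOCS3 to lower, besides the members named above. A pseudocount of 5 took IRF1, IFI35, TBK1, RNF135, TDRD7, SP110 and IRF2 inside 1.2-fold, and centring on the median of all genes took IFI35 inside it and UBE2L6 past it. The other alternatives kept the sign of every named gene. For the 11 members with at most 30 estimated fragments in all, depth limits any comparison.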
